A study of Mus musculus with 60 samples.

Results

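Sensory neuron identity genes are described here as a fixed list of 36 genes, out of 21887 protein-coding genes on chromosomes 1 to 19, X and Y. The members were taken by name and fall into 6 roles: 8 transcription factors, 4 RNA-binding proteins, 7 cytoskeletal genes, 5 genes of synapse and secretion, 4 genes of transmitter identity and 8 subtype or surface markers. A peak was counted for a gene when any of its bases lay in the gene body or within 10 kb on either side. All mice were C57BL/6 animals of 6 to 8 weeks with no transgene or mutation named, and the fourth to sixth lumbar dorsal root ganglia were taken 24 h after surgery. The 4 surgeries were axotomy of the sciatic nerve (SNA), which cuts the peripheral branch of sensory axons, a sham operation on that nerve (Sham), a dorsal column axotomy in the spinal cord (DCA), which cuts the central branch, and laminectomy alone (Lam), which opens the spine without an axotomy. Histone marks H3K9ac, H3K27ac and H3K27me3 were measured by chromatin immunoprecipitation with 2 samples per mark and surgery, each a pool of 10 mice. Accessible chromatin was measured by ATAC-seq with 3 samples per surgery, each from 1 mouse. The question put to these lists was whether chromatin at the genes that define sensory neurons differed between surgeries, and how it compared with the rest of the genome.

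Sensory neurons of the dorsal root ganglion arise under a cascade of homeodomain, POU, RUNX and PRDM transcription factors, and their mature types are told apart by neurofilaments, vesicular glutamate transporters and receptors for touch, itch, heat and pain. In a ganglion each neuron is wrapped by satellite glia, its axon by Schwann cells, and macrophages and blood vessel cells lie between them. H3K9ac and H3K27ac are found at active promoters and enhancers, H3K27me3 at genes held silent by Polycomb, and ATAC-seq reads DNA that a transposase can reach. Whole ganglia were used, so fewer cells carrying a mark and less mark per cell cannot be told apart.

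Each of the 16 lists pooled the replicates of 1 assay and 1 surgery, so no value has a replicate error and no difference below was tested. The lists held 43803 to 75824 H3K27ac peaks, 50332 to 89647 H3K9ac peaks, 153556 to 174605 ATAC peaks and 90011 to 154055 H3K27me3 peaks. They stand apart in more than length: a q of at most 0.05 was carried by 56.1% of H3K9ac peaks in Sham and 99.0% in DCA, but by at most 1.31% of H3K27me3 peaks in any list. The depth of the libraries is unknown. The highest rank in the peak names exceeded the number of lines in every list, so a peak that is missing was only not in the deposited list. Chromosome X, with 4.41% of the genes, held 0.123% to 1.02% of the peaks of a list, which touches 1 member, Syn1.

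Promoter sequences are shown first for the 4 members whose start carried a peak in the most lists and the 4 with the fewest, among the 27 members that have a RefSeq promoter entry (GRCm38.p6). Each run is the 250 bases just before the start, read 5′ to 3′ on the strand of the gene. A start here means a transcription start of that table, and a peak at the start has a base within 1 kb of it. Capitals mark exact matches, on either strand, to CCAAT, to TATAAA, to GGGCGG (SP and KLF factors), to TGACGTCA (cyclic AMP response element), to TGTGGT (RUNX factors) and to GGACAG (the right part of the RE1 element bound by REST).
Runx1, chr16:92697330-92697579, minus strand: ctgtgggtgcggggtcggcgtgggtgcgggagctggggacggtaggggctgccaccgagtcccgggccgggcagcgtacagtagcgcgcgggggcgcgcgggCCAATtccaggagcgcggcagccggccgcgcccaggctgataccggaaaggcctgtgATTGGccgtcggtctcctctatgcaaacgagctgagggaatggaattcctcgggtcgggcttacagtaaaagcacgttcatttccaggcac
Prph, chr15:99054924-99055173, plus strand: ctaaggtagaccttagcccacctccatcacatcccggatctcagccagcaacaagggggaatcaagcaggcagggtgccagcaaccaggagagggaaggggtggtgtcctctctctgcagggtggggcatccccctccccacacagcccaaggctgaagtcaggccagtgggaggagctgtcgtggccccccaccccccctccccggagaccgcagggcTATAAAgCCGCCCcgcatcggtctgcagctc
Uchl1, chr5:66675871-66676120, plus strand: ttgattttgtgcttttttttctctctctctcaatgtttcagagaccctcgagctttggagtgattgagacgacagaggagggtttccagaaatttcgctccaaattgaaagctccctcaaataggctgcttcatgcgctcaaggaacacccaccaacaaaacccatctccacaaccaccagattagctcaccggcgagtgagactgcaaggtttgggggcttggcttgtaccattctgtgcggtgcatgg
Prdm12, chr2:31639787-31640036, plus strand: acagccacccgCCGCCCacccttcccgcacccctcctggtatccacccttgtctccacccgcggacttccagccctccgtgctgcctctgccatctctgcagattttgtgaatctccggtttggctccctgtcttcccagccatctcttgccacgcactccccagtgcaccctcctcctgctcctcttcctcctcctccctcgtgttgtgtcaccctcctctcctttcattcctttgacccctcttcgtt
Avil, chr10:127000459-127000708, plus strand: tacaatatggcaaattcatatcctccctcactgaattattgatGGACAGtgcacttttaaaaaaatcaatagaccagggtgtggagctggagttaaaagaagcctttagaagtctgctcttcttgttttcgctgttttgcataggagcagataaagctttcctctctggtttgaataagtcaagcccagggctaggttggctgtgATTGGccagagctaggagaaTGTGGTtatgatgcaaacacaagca
Mrgprd, chr7:145314585-145314834, plus strand: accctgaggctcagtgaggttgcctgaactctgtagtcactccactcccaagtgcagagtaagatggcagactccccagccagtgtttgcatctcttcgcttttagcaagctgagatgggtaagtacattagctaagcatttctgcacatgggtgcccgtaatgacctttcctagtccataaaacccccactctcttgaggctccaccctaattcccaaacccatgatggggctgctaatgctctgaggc
Rbfox3, chr11:118761042-118761291, minus strand: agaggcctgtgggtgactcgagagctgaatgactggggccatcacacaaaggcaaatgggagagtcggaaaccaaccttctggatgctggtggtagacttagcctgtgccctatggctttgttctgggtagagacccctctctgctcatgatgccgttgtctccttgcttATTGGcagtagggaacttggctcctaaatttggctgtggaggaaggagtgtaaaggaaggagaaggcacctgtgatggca
Scg2, chr1:79440027-79440276, minus strand: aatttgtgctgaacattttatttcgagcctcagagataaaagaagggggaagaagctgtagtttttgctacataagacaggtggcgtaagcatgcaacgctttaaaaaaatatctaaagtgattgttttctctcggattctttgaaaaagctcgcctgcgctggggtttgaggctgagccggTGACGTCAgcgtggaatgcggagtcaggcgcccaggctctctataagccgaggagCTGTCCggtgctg

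The start of Runx1 held a peak in 13 of 16 lists, those of Prph and Uchl1 in 10 and that of Prdm12 in 9. Prdm12 shared its count with Pvalb, Stmn3 and Syt1 and is shown by alphabet. The starts of Avil and Mrgprd held a peak in 4 lists, and those of Rbfox3 and Scg2 in 2. These counts include the H3K27me3 lists, so they do not rank starts by openness or acetylation. The lists of Prdm12 were 4 of ATAC, 4 of H3K27me3 and 1 of H3K27ac. Those of Rbfox3 were both H3K27me3 and those of Scg2 both ATAC. In base composition the Runx1 promoter was 67.6% GC and that of Avil 42% GC, with CpG at 0.98 and 0.09 of the number their base content gives. Composition did not order the 8 genes: Scg2, with few lists, had 48.0% GC and a CpG ratio of 0.95, Uchl1, with 10 lists, 48.8% GC, and Prph, also with 10, a CpG ratio of 0.27. Over the 27 members with an entry the median was 61.2% GC and a CpG ratio of 0.59, against 55.6% and 0.53 over 21263 promoters. The 15 members with an acetylation peak at the start had medians of 61.2% and 0.59, and the 12 without had 57.6% and 0.57.

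A set of 10 motifs was searched on both strands of these 250-base windows, in 39 promoters of the 27 members and in all 21263. TGACGTCA was found in Scg2, where it starts 68 bases before the start, and in Th and Syn1, which is 7.69% of the members' promoters against 1.92% of all. TTCAGCACC, the left part of RE1, was found in Syn1 among the members and in 0.329% of all promoters, and its right part GGACAG in 12.8% against 18.8%. TATAAA was found in Elavl3 and Prph, 5.13% against 11.6%, and in Prph it starts 31 bases before the start. The homeodomain core TAATTA was in 10.3% against 4.31% (Elavl4, Slc17a6 and Slc17a8) and the E-box CAGCTG in 17.9% against 12.1%. The other shares were 41.0% against 35.4% for CCAAT, 33.3% against 42.6% for GGGCGG, 7.69% against 12.4% for TGTGGT and 2.56% against 6.13% for the AP-1 site TGANTCA. Motifs were counted one by one and may overlap. A match is a run of letters and was not tested as a binding site.

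The starts of the members were open in nearly every list, and few were acetylated. In the order Sham, SNA, Lam, DCA, an ATAC peak lay at the start of 33, 34, 33 and 33 of the 36 members, where 68.8%, 70.7%, 69% and 70.1% of all genes had one. H3K9ac lay at the start of 3, 4, 4 and 12 members in the same order, against 50.1%, 51.4%, 51.1% and 59.9% of all genes. For H3K27ac the counts were 6, 7, 10 and 6 members, against 40.4%, 51.6%, 51.3% and 43.3%. The share of members with an open start was thus above that of all genes in the 4 ATAC lists. The share with an acetylated start was below it in the 8 acetylation lists. An ATAC peak lay at the start after every surgery in 30 of the 36 members (83.3%), against 62.1% of all genes. Any listed start counted, or either gene end where no strand is given, so the site could differ between lists. Pvalb, for example, is among the 30 but had 0 ATAC regions present in all 4 lists.

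**Figure D1:**
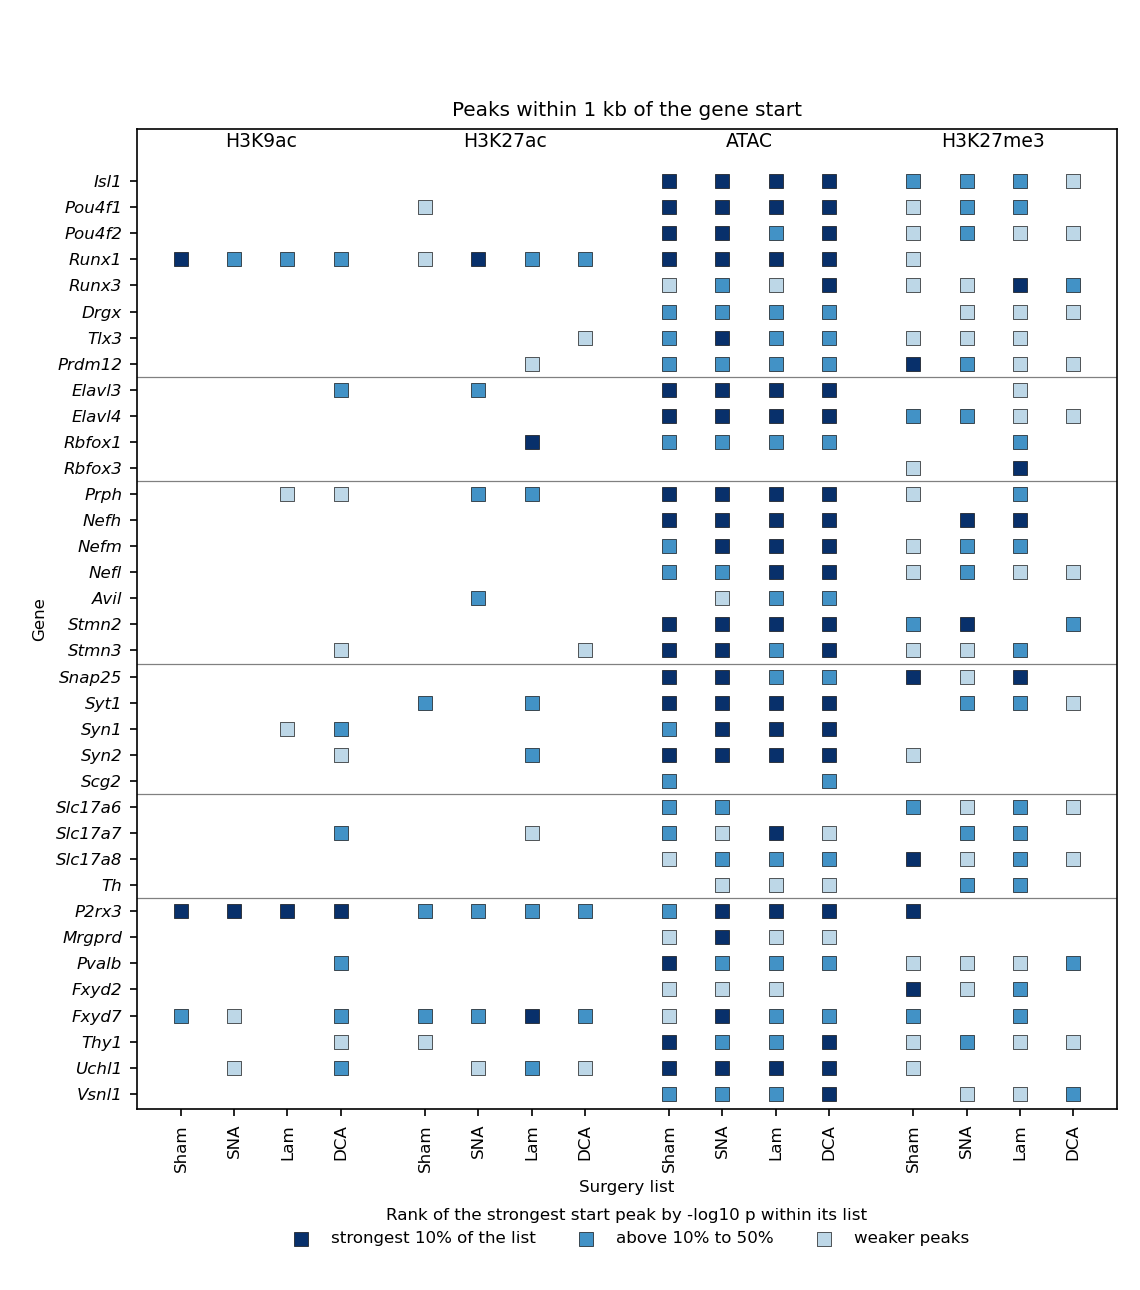
Squares mark a peak within 1 kb of the start of each gene (rows, grouped by role) in each list (columns, 4 surgeries per assay). Dark squares are peaks among the strongest 10% of their own list by −log10 p, and the acetylation columns are mostly empty beside filled ATAC columns.

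A group of 13 members had an ATAC peak at the start in all 4 lists and no acetylation peak there in any of the 8 lists, which is 36.1% of members against 5.83% of all genes. They were Isl1, Pou4f2, Runx3 and Drgx among the transcription factors, the RNA-binding gene Elavl4, the neurofilament genes Nefh, Nefm and Nefl, the tubulin-binding Stmn2, the SNARE gene Snap25, the glutamate transporter Slc17a8, the nociceptor receptor Mrgprd and the calcium sensor Vsnl1. A further 5 members had no acetylation at the start: Rbfox3, Scg2, Slc17a6, Th and Fxyd2. Together these 18 members are 50.0%, against 36.9% of all genes. Of the other 18 members, 6 had acetylation at the start in 1 list, 7 in 2 lists and 5 in at least 4 lists. The count of 13 was 14 with the long H3K9ac DCA list left out, 11 at a −log10 q of at least 2, and 8 of the 27 members with a promoter entry, where it was 5.49% of all such genes.

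Whole windows gave a smaller gap than starts. Any H3K9ac peak was in the window of 11, 14, 12 and 19 members (all genes 63.4%, 65.4%, 63.4% and 69.8%), any H3K27ac peak in that of 18, 12, 21 and 16 (61%, 63.9%, 64.8% and 60.5%) and any ATAC peak in that of 36, 35, 36 and 36 (84.8%, 85%, 83.6% and 84.7%). No H3K9ac and no H3K27ac peak was in the window of 9 members (25.0%, against 25.9% of all genes): Isl1, Pou4f2, Nefh, Nefm, Nefl, Snap25, Scg2, Slc17a8 and Vsnl1. No H3K9ac peak was in the window of 17 members (47.2% against 28.5%), and no H3K27ac peak in that of 10 (27.8% against 29.3%). The median member had 0 H3K9ac peaks in Sham, SNA and Lam and 1 in DCA, where the median gene had 1, 2, 1 and 2. For ATAC the median member had 7, 7, 6.5 and 7.5 peaks and the median gene 4, 5, 4 and 4, with a median gene length of 18.0 kb for members and 17.2 kb for all genes.

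Along the sequence, ATAC coverage of the members peaked at the start itself. Of the 39 listed starts of the 27 members, the start base itself was covered in 23, 23, 19 and 24, which is 48.7% to 61.5% beside 58.9% to 61.7% of all 21263 starts. By this count of start bases the members stood near or below all starts, unlike in the count of genes within 1 kb of any start. For H3K9ac the highest coverage of member starts was 9 of 39 (23.1%), 200 bases into the gene in DCA, and 1 of 39 in each other list. All starts reached 33.8% to 53.7% at their highest point for H3K9ac and 21.0% to 34.7% for H3K27ac, where the members reached 1 to 4 of 39. ATAC coverage of member starts at 5 kb on either side fell to at most 10.3%, and that of all starts to at most 4.61%.

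**Figure D2:**
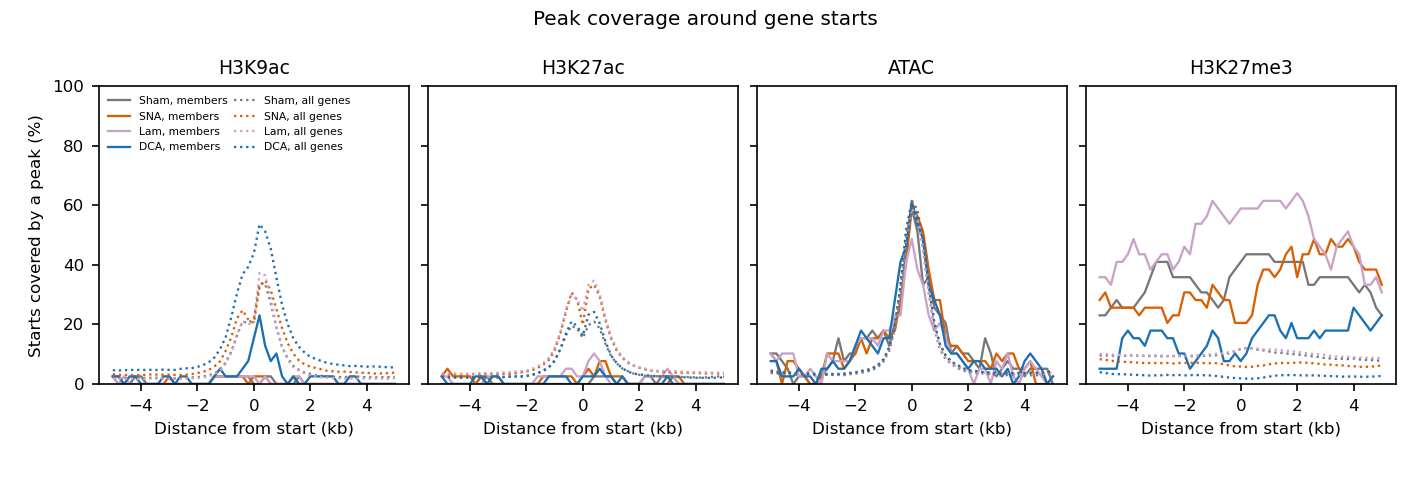
The percent of transcription starts covered by a peak is drawn against the distance from the start in kb, from 5 kb before to 5 kb inside the gene, for 39 starts of the listed genes (solid) and 21263 starts of all genes (dotted), 1 colour per surgery. The solid and dotted ATAC curves overlap around the start, the solid H3K9ac and H3K27ac curves lie below the dotted ones around the start, and the solid H3K27me3 curves lie above the dotted ones.

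How strong the open starts were differs from how many there were. The ATAC start peak was in the strongest 10% of its list for 16, 20, 16 and 20 members in the same order, and for 47.8%, 51.2%, 48.8% and 50.2% of all genes. Syn2 had the highest-ranked ATAC start of all members in Sham and SNA, in the top 3.72% and 2.77% of peaks, and Runx1 in Lam and DCA, in the top 3.0% and 3.90%. Among the weaker start peaks was that of Th, which was missing from Sham and ranked in the top 54.5%, 84.0% and 98.9% of the SNA, Lam and DCA lists. H3K9ac starts among the strongest 10% numbered 2 members in Sham (Runx1 and P2rx3) and 1 in each other list (P2rx3), against 17.7% to 32.9% of all genes. For H3K27ac there were 0, 1, 2 and 0 such members, against 2.24%, 20.5%, 13.3% and 4.86%.

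The same counts in 4 other gene lists of 20 genes each showed where the members stand. Genes of satellite glia and Schwann cells, such as the transcription factor gene Sox10, had H3K9ac at the start in 16, 17, 18 and 19 of 20 and H3K27ac in 15, 19, 19 and 14, and 0 of the 20 lacked acetylation there in every list. Other sensory neuron genes, such as the neurotrophin receptors and Scn10a, had H3K9ac at 4, 5, 4 and 9 starts, and 9 of 20 lacked acetylation in every list. Macrophage genes lacked it in 15 of 20 and genes of brain and spinal cord neurons in 18 of 20. An ATAC peak at the start after every surgery was in 15 other sensory neuron genes, 17 glial genes, 7 macrophage genes and 15 central neuron genes. Central neuron genes thus also had many open starts and few acetylated ones. No difference between these lists was tested, and the part of any cell type in the member counts was not tested.

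**Figure D3:**
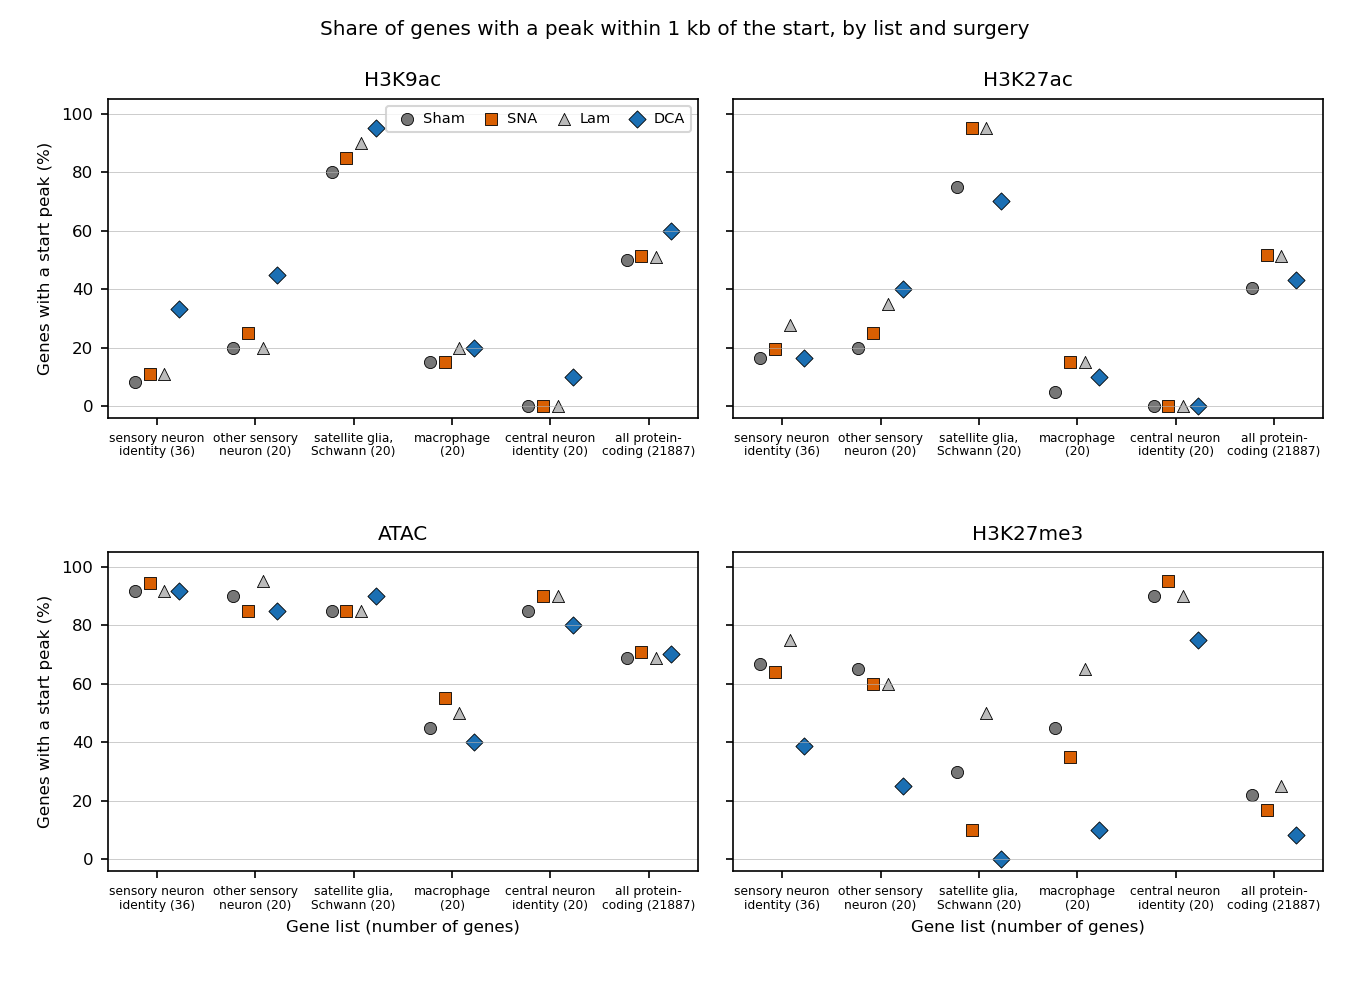
The percent of genes with a peak within 1 kb of the start is plotted for 6 gene lists (horizontal axis, with their number of genes), 1 panel per assay and 1 symbol per surgery. Acetylation is highest in the glial list and lowest in the central neuron list, with the 36 sensory neuron identity genes between them, and ATAC is lowest in the macrophage list.

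Transcription factors were open at the start in 8 of 8 genes after every surgery, and 4 of 8 had acetylation there in at least 1 list. Isl1 (chromosome 13, 116298270 to 116309688), a LIM homeodomain factor of sensory and motor neurons, had 5, 4, 6 and 7 ATAC peaks, again ordered Sham, SNA, Lam, DCA, and no acetylation peak in its window in any list. Its start peak ranked in the top 5.11%, 6.11%, 6.71% and 8.90% of the ATAC lists. Pou4f1 (chromosome 14, 104461675 to 104468118), the POU factor also called Brn3a, had 8, 6, 5 and 7 ATAC peaks, and its only acetylation peak was H3K27ac in Sham, centred 853 bases inside its start. Pou4f1 had 5 ATAC regions in all 4 lists, and 4 of these lay away from the start. The one at 104460340 to 104461174, beyond the far end of the gene, ranked in the top 5.04% to 9.46% of the lists. Pou4f2 (chromosome 8, 78433009 to 78436647), a related POU factor known from retinal ganglion cells, had 3, 6, 6 and 5 ATAC peaks and no acetylation.

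Runx1 (chromosome 16, 92601466 to 92826074), which specifies nociceptors and is also expressed in blood cells, had many acetylation peaks over a long window, with 3.07 H3K9ac and 3.78 H3K27ac peaks per 100 kb on average over the lists, where Fxyd7 had 25.9 and 22.5. Its window held 8, 5, 5 and 12 H3K9ac peaks and 8, 9, 13 and 7 H3K27ac peaks, beside 34, 37, 35 and 33 ATAC peaks. Both acetylation marks lay at a start in all 4 lists, always at the start inside the gene at 92697329, 95.9 kb from the nearer gene end. At its other start, 92826074, no acetylation peak was listed, and ATAC only in Lam and DCA. Runx3 (chromosome 4, 135120645 to 135177990), the factor of proprioceptors, had 12, 17, 22 and 13 ATAC peaks, no H3K9ac, and 1 H3K27ac region inside the gene in Sham, Lam and DCA. That region ranked in the top 4.66%, 6.61% and 5.50% of those lists and was not in SNA.

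Drgx, named Prrxl1 in RefSeq (chromosome 14, 32595867 to 32649246), a homeodomain factor of pain circuits, had 9, 19, 12 and 11 ATAC peaks. Its SNA count stood above the other 3 lists. Its only acetylation was H3K27ac in Sham and DCA, in both centred at −7542 bases from the start. Tlx3 (chromosome 11, 33200752 to 33203588), a homeobox factor of sensory and dorsal horn neurons, had 3, 3, 4 and 6 ATAC peaks and 1 H3K27ac peak in Lam and in DCA. Prdm12 (chromosome 2, 31635026 to 31655795), a nociceptor gene whose loss causes insensitivity to pain, had 4, 7, 11 and 8 ATAC peaks, 1, 2, 2 and 2 H3K27ac peaks, and 1 H3K9ac peak in Sham and in DCA. Its H3K27ac region at 31636142 to 31637209, inside the gene model and before the listed start, was in all 4 lists.

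RNA-binding genes included the longest member, Rbfox1. Rbfox1 (1528 kb) had 187, 176, 211 and 199 ATAC peaks and Rbfox3 (422 kb), which encodes the NeuN antigen, 71, 73, 76 and 67. Per 100 kb of window, averaged over the lists, these were 12.5 and 16.2 ATAC peaks. The members ranged from 4.35 (Syn1, on chromosome X with its few listed peaks) to 29.4 (Fxyd7). Rbfox3 was the only member with no ATAC peak at its start in any list. Its listed start lies 150.6 kb inside the gene model, and within 1 kb of the outer end on that side an ATAC peak was in Sham and in Lam. Rbfox3 held 5, 0, 4 and 5 H3K27ac peaks, so SNA was the list without any. A pair of its H3K27ac regions was in Sham, Lam and DCA. Elavl3 and Elavl4, the neuronal HuC and HuD proteins, had 14, 15, 14 and 11 and 21, 22, 23 and 22 ATAC peaks, and Elavl4 had no H3K9ac and 1 H3K27ac peak in each list but SNA.

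Cytoskeletal genes were open at the start after every surgery in 6 of 7 genes, and 3 of 7 had acetylation there in at least 1 list. The open ones without acetylation, Nefh, Nefm, Nefl and Stmn2, have no strand in the table and were read at either end. Nefh, Nefm and Nefl, the heavy, medium and light neurofilament subunits, had no acetylation peak in any list. Their ATAC peaks numbered 5, 7, 6 and 7 for Nefh, 2, 2, 3 and 5 for Nefm, and 2, 4, 5 and 6 for Nefl. Nefh has no strand in the table, and at its end with the higher coordinate an ATAC peak ranked in the top 5.77%, 6.41%, 4.94% and 4.85% of the lists. A peak at its other end was also in each list and in Sham ranked higher, in the top 5.38%. Prph, which encodes peripherin, the intermediate filament of peripheral neurons, had H3K9ac at the start in Lam and DCA and H3K27ac there in SNA and Lam, with 0, 3, 1 and 0 H3K27ac peaks in its window. Stmn3, a stathmin, carried 1, 1, 2 and 3 H3K9ac peaks, and at least 1 of these in each list lay at the start of its neighbour Rtel1.

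Among genes of synapse and secretion, Snap25, a SNARE of vesicle release, had 8, 7, 8 and 8 ATAC peaks and no acetylation. Syt1, the calcium sensor of release, had 24, 33, 30 and 26 ATAC peaks and H3K27ac at a start in Sham and Lam. Those H3K27ac peaks lay at nearly the same place, centred 446 and 442 bases inside its listed start at 109009111. The strongest ATAC start peak of each list was centred nearest its other start, 109010975. Synapsin genes Syn1 and Syn2 had H3K9ac at the start in DCA, and Syn1 also in Lam. Scg2, a granin of dense-core vesicles, had 3, 0, 1 and 3 ATAC peaks and no acetylation. Scg2 after SNA was the only member and list without any ATAC peak.

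Transmitter genes differed among themselves. Slc17a7, the vesicular glutamate transporter VGLUT1, had 2, 1, 2 and 5 H3K9ac peaks and 1, 1, 4 and 1 H3K27ac peaks. Its acetylated region in all 4 lists of both marks, at 45153583 to 45154658 on chromosome 7 for H3K9ac, lay at the starts of Aldh16a1 and Pih1d1. Slc17a6 (VGLUT2), the main transporter of sensory neurons, had 5, 5, 2 and 3 ATAC peaks, with one at a start in Sham and SNA only, and a single H3K27ac peak in Sham. Slc17a8 (VGLUT3) had 3, 6, 4 and 5 ATAC peaks and no acetylation. Th, tyrosine hydroxylase of low-threshold mechanoreceptors, had 2, 5, 2 and 2.

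Subtype and surface markers held more H3K9ac peaks than any other role in each list. P2rx3, the ATP receptor of nociceptors, had H3K9ac at a gene end in all 4 lists, in the top 0.83%, 1.47%, 1.17% and 0.61%, and H3K27ac there too. That end is shared with the start of Ssrp1, and P2rx3 has no strand in the table used, so the peak cannot be given to either gene. Fxyd7 held 7, 8, 4 and 11 H3K9ac peaks and 6, 6, 6 and 8 H3K27ac peaks, and in each list some of them lay at the starts of its neighbours Fxyd5, Fxyd1 or Lgi4. Peaks at the start of some other gene made up 10 of the members' 29 H3K9ac peaks in Sham, 11 of 33 in SNA, and 11 of 26 and 12 of 62 in Lam and DCA. Mrgprd had 3, 3, 1 and 5 H3K9ac peaks, away from its own start. Pvalb, of proprioceptors, had H3K9ac in DCA alone, with 2 peaks. Fxyd2 had 2, 1, 0 and 3, and Thy1 1 H3K9ac peak in DCA, beside the end of the gene with the higher coordinate. Uchl1, the neuronal deubiquitinase PGP9.5, had 0, 1, 0 and 1 H3K9ac peaks, both at its start, and Vsnl1 had 15, 10, 11 and 7 ATAC peaks and no acetylation.

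**Figure D4:**
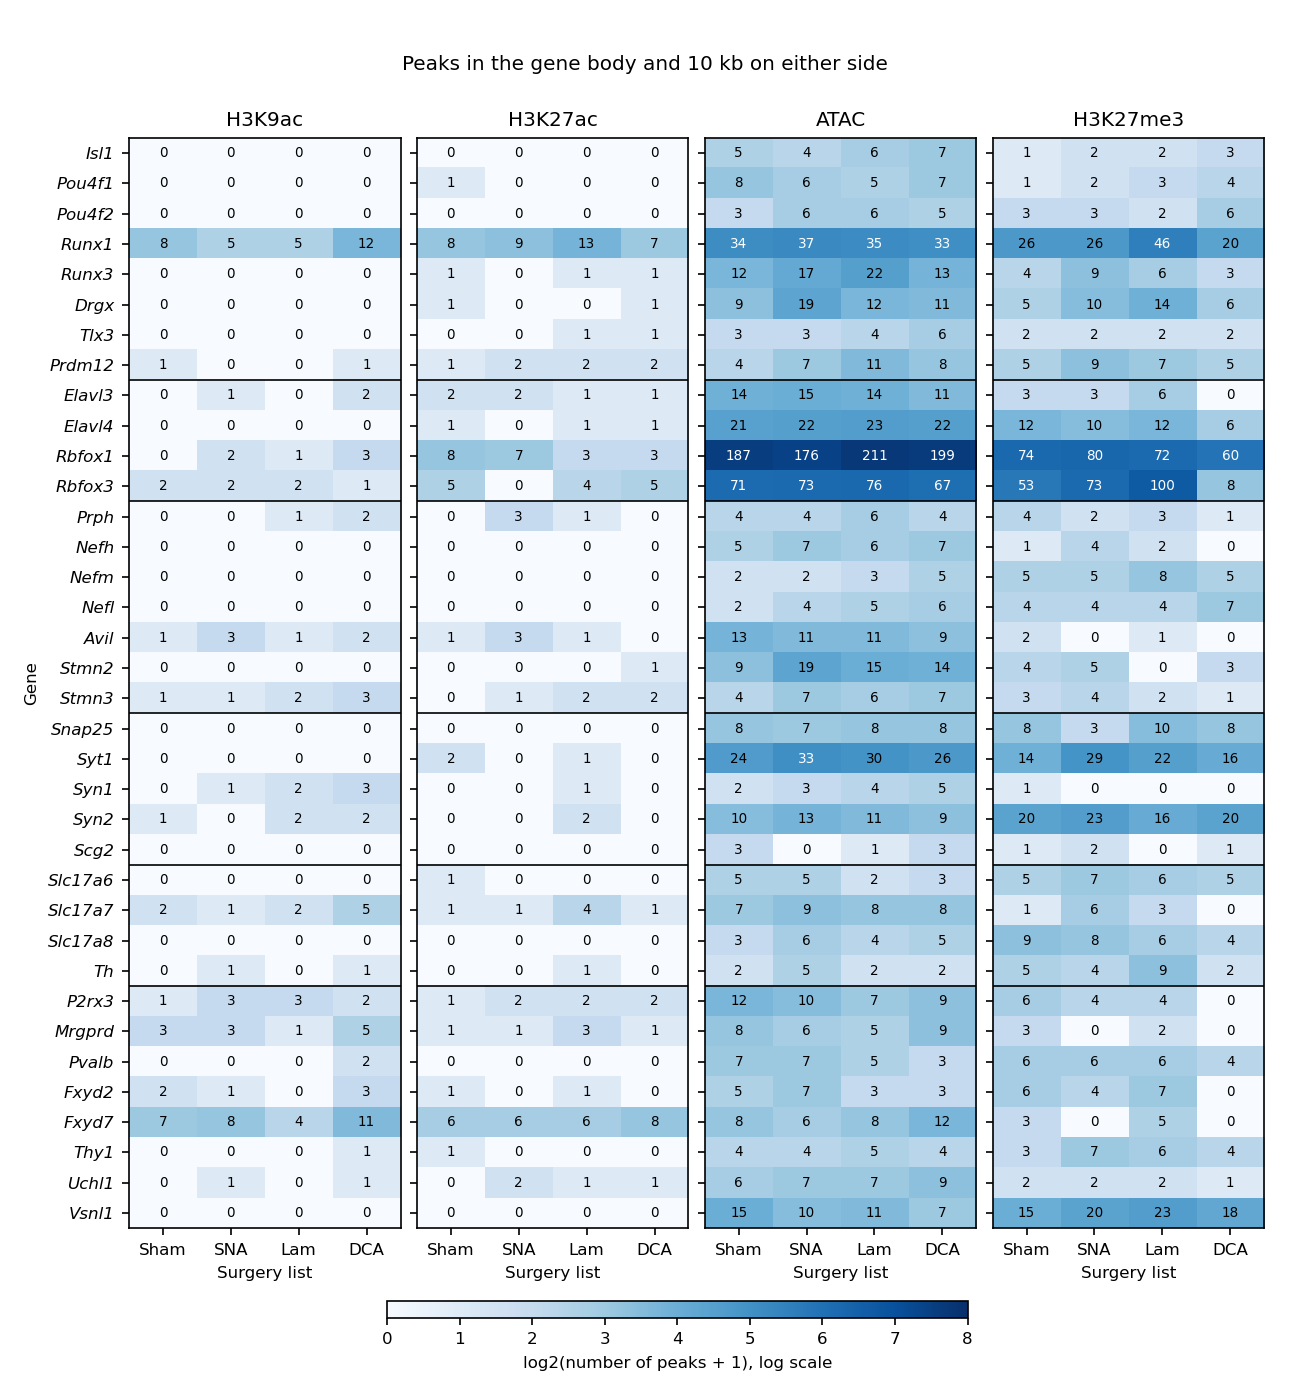
Each cell gives the number of peaks in the gene body and 10 kb on either side for 1 gene (row) and 1 list (column), coloured on a log2 scale of peaks + 1. Runx1 and Fxyd7 have the highest H3K9ac numbers, and Rbfox1 and Rbfox3 the highest ATAC numbers.

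Between surgeries, H3K9ac at the members differed most between DCA and Lam. In all, the member windows held 29, 33, 26 and 62 H3K9ac peaks in the order used above, a log2 ratio of 1.25 for DCA against Lam and 0.19 for SNA against Sham. All genes gave 0.79 and 0.54. At least 2-fold more H3K9ac peaks (in peaks + 1) were listed in DCA than in Lam for 12 of 36 members, with 21.9% of all genes past that mark, and 2-fold fewer for 0 members, with 1.19% of genes. In SNA against Sham 7 members were higher (12.2% of genes) and 2 lower (2.89%), and in Lam against Sham 4 were higher (7.37%) and 3 lower (7.33%). With every H3K9ac list trimmed to equal length, DCA against Lam gave 5 members higher and 2 lower and a log2 ratio of 0.44, so the count of 12 moved with the length of the lists. The SNA against Sham ratio turned to −0.47 there, with 3 members higher and 5 lower, and was 0.92 at a −log10 q of at least 2. The 2 comparisons with Sham share its list.

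H3K9ac lay at the start in DCA and not in Lam for 8 members, with 9.43% of all genes: Elavl3, Stmn3, Syn2, Slc17a7, Pvalb, Fxyd7, Thy1 and Uchl1. None was in Lam alone (0.571% of genes). In SNA against Sham the gain was 1 member, Uchl1 (5.19% of genes), with 0 lost (3.84%). Lam against Sham gained Prph and Syn1 (5.32% of genes) and lost Fxyd7 (4.36%). The 8 peaks of DCA ranked in the top 15.8% to 78.8% of the list, with Fxyd7 highest and Stmn3 lowest. Of these 8, Fxyd7 and Thy1 have no strand in the table and were read at either end, and the Fxyd7 peak also lies at the start of Fxyd5. With lists of equal length, members with H3K9ac at the start went from 12 to 8 in DCA (55.6% of genes) and stayed at 4 in Lam (50.9%).

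H3K27ac peaks of the members were fewer in SNA than in Sham, where those of all genes were more. Member windows held 43, 39, 52 and 38 H3K27ac peaks, so SNA against Sham gave a log2 ratio of −0.14, where all genes gave 0.81. Without Rbfox1 and Rbfox3 the member ratio was 0.09. In SNA 4 members were at least 2-fold higher (21.5% of genes) and 9 lower (6.09%). Of those lower, Rbfox3 went from 5 peaks to 0 and Syt1 from 2 to 0. Each of the others went from 1 peak to 0, which is just 2-fold in peaks + 1. For DCA against Lam 2 were higher (3.36%) and 9 lower (14.6%), with a log2 ratio of −0.45 beside −0.52 over all genes. For Lam against Sham, neither with an axotomy, 9 were higher (16.8%) and 5 lower (4.1%). With lists of equal length the SNA ratio was −0.90 and the members 2-fold higher numbered 2.

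At the start, H3K27ac was listed in SNA and not in Sham at Elavl3, Prph, Avil and Uchl1, with 13.6% of all genes, and in Sham and not in SNA at Pou4f1, Syt1 and Thy1, with 2.39%. In DCA and not in Lam it lay at Tlx3 and Stmn3 (2.4% of genes), and in Lam and not in DCA at Prdm12, Rbfox1, Prph, Syt1, Syn2 and Slc17a7 (10.4%). Lam against Sham, without axotomy, moved as many members: 6 gained (13% of genes) and 2 lost (2.13%). The DCA peak at Tlx3 ranked in the top 99.8% of its list and the Lam peak at Slc17a7 in the top 97.6%, both among the weakest peaks listed.

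ATAC peak numbers differed least. Member windows held 539, 577, 598 and 566 ATAC peaks, with log2 ratios of 0.10 for SNA against Sham, −0.08 for DCA against Lam and 0.15 for Lam against Sham. Over all genes the ratios were 0.22, 0.01 and 0.11. In SNA 3 members were at least 2-fold higher (8.87% of genes) and 1 lower (4.63%), 1 was higher in DCA (7.18%) and 0 lower (4.98%), and 2 were higher (7.05%) and 2 lower (6.55%) in Lam against Sham. The 3 higher in SNA were Drgx, Stmn2 and Th, and the 1 lower was Scg2. More ATAC peaks in SNA than in Sham were listed for 20 members (46.8% of all genes) and fewer for 10 (24.1%). With lists of equal length the SNA ratio turned to −0.094. At the start, SNA against Sham gained an ATAC peak at Avil and Th (5.17% of genes) and lost that of Scg2 (3.23%). DCA against Lam gained Scg2 (4.6%) and lost Fxyd2 (3.5%), and Lam against Sham gained Avil and Th (4.38%) and lost Scg2 and Slc17a6 (4.17%).

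**Figure D5:**
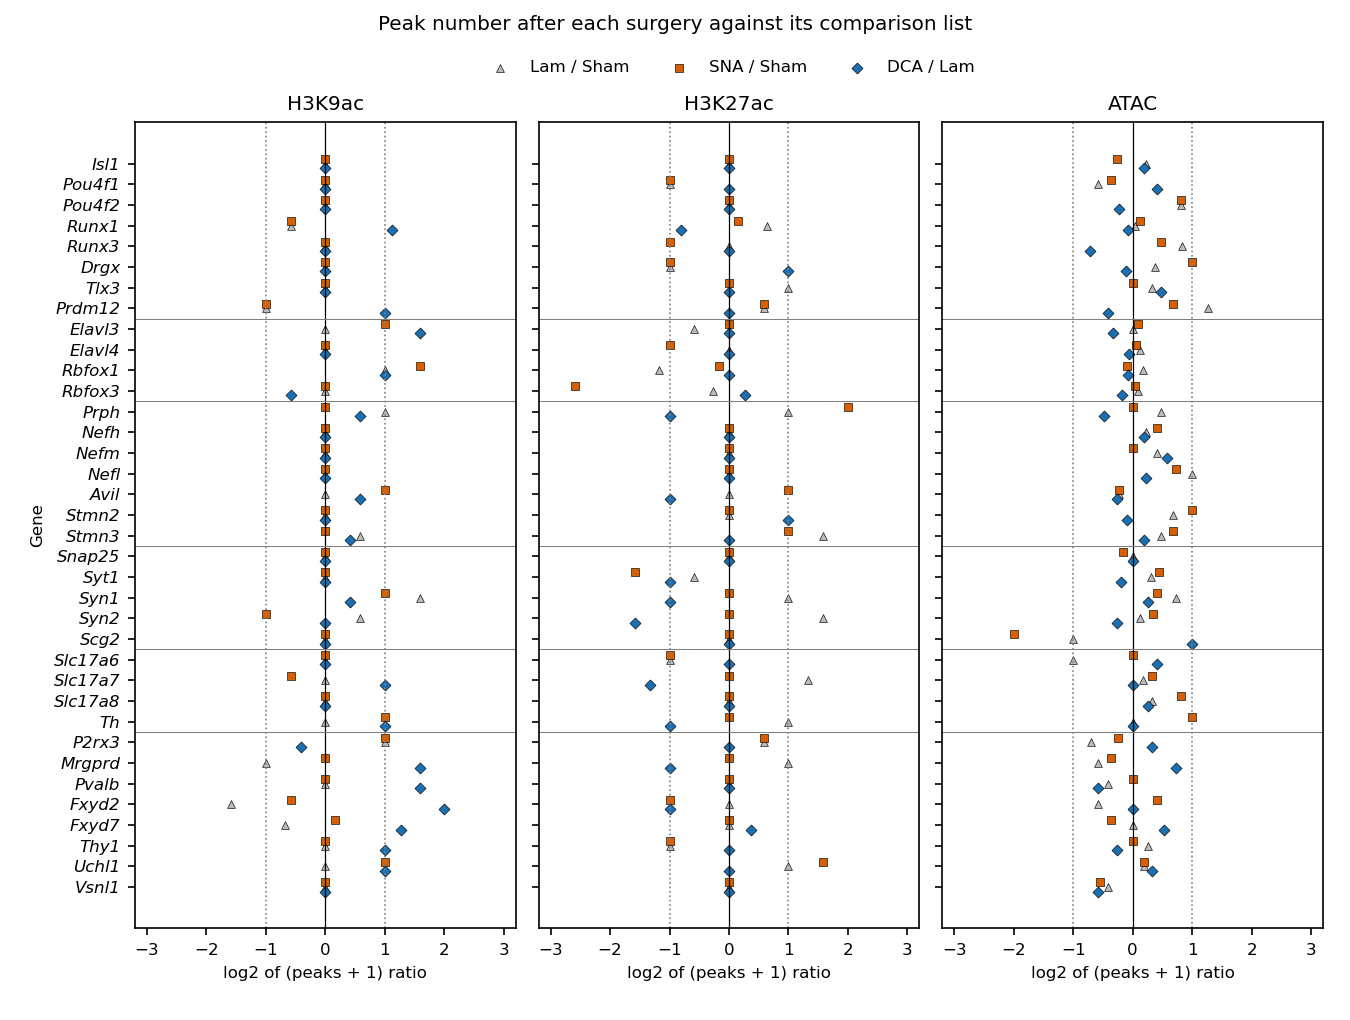
For each gene (row) the log2 ratio of peaks + 1 is plotted for SNA over Sham, DCA over Lam and Lam over Sham, 1 panel per assay, with dotted lines at 2-fold. ATAC ratios lie mostly inside the dotted lines, while H3K9ac and H3K27ac ratios rest on few peaks and take few values, with Rbfox3 lowest in H3K27ac for SNA over Sham.

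A total of 5 members (13.9%, beside 8.86% of all genes) were at least 2-fold higher in SNA than in Sham in at least 2 assays, or in ATAC alone with a net of at least 4 peaks, and 0 were lower by that rule (1.42%). By the same rule 0 members were higher (3.39%) and 0 lower (2.07%) in DCA against Lam. Of the 5, with lists of equal length only Stmn2 still passed. At a −log10 q of at least 2 the rule kept Drgx, Avil and Stmn2, and in the gene body alone Avil, Stmn2 and Uchl1. Avil, which encodes the actin-binding advillin of peripheral sensory neurons, had 1, 3, 1 and 2 H3K9ac peaks and 1, 3, 1 and 0 H3K27ac peaks, so SNA was highest for both marks. A peak in each H3K9ac list, and in each H3K27ac list but DCA, lay at the start of Tsfm, in the flank of Avil. The H3K27ac peak of Avil in SNA at 127001112 to 127001470, 582 bases inside its start, ranked in the top 41.8%. Avil also gained an ATAC start peak in SNA, in the top 82.7%, and held one in Lam and DCA. Its ATAC number was 13, 11, 11 and 9, highest in Sham.

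Uchl1 had 0 H3K9ac peaks in Sham and Lam and 1 in SNA and DCA, and 0, 2, 1 and 1 H3K27ac peaks. Its H3K9ac peak in SNA ran from 66675964 to 66676614 on chromosome 5, fold enrichment 2.56 and top 69.5% of the list. In DCA it ran from 66675549 to 66677111, fold enrichment 4.06 and top 26.4%. Both cover the start. Trimmed to equal list lengths, the Uchl1 difference in SNA was 0 for both marks. Its ATAC start peak ranked in the top 5.03% to 6.00% of all 4 lists.

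Stmn2, the stathmin also called SCG10 of growing axons, had 9, 19, 15 and 14 ATAC peaks, a log2 ratio of 1.00 in SNA against Sham. The other 2 surgeries lay between. A run of 3 ATAC regions of Stmn2 between 8508764 and 8512121 on chromosome 3, around the end of the gene with the lower coordinate, was in all 4 lists and in the top 9.53% of each. Its only acetylation was an H3K27ac peak in DCA at 8511244 to 8511515. The log2 ratio of Stmn2 was 1.00 under each alternative run for it, and that of Drgx ran from 0.74 to 1.12. Th, with 2 ATAC peaks in Sham and 5 in SNA and 1 H3K9ac peak in SNA and DCA each, had a log2 ratio of 0 for H3K9ac under 3 of 3 alternatives, and its ATAC ratio went from 1.00 to between 0.415 and 0.585, short of 2-fold under each. That H3K9ac peak lay 3.1 kb before the start, in the top 85.7% of SNA and 83.7% of DCA.

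Merging the surgeries left 1240 ATAC regions in the member windows. Every list held 134 of them (10.8%), and 706 were in 1 list. Over the genome 10.0% of 368411 regions were in all 4. Of the 134, 35 lay at a start of the member and 99 away from it, and 39 met an acetylation region. At least 1 such region was in 31 members, and 24 had one away from the start. The highest numbers were 33 in Rbfox1, 8 in Runx1, 8 in Rbfox3 and 7 in Elavl3. There were 0 in Scg2, Slc17a6, Th, Pvalb or Fxyd2. The counts by place and by gene were not made over all genes, so they have no share to stand beside. For H3K9ac 9 of 85 member regions (10.6%) were in all 4 lists, against 18.8% over the genome, and for H3K27ac 7 of 93 (7.53%), against 13.6%. The 9 H3K9ac regions lay in the windows of Runx1, Avil, Stmn3, Slc17a7, P2rx3 and Fxyd7. In all of these windows but that of Runx1, each H3K9ac list had a peak at the start of a neighbouring gene, as given above. With a reciprocal overlap of 50%, 5.73% of the ATAC regions, 4.71% of the H3K9ac regions and 1.08% of the H3K27ac regions were in all 4.

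H3K27me3 peaks were listed at many member starts, almost all of them weak. They lay at the start of 24, 23, 27 and 14 members, against 22.2%, 16.9%, 25.1% and 8.46% of all genes. Many such starts were not particular to the members. Of 20 genes each, other sensory neuron genes had one at 13, 12, 12 and 5, and central neuron genes at 18, 19, 18 and 15. Glial genes had one at 6, 2, 10 and 0 of 20, and macrophage genes at 9, 7, 13 and 2. All 4 surgeries had one at 10 members (27.8%, against 3.4% of genes): Isl1, Pou4f2, Runx3, Prdm12, Elavl4, Nefl, Slc17a6, Slc17a8, Pvalb and Thy1. Only Avil, Syn1, Scg2 and Mrgprd had none (11.1% against 62.3%), and Syn1 lies on chromosome X, where few peaks were listed. At a −log10 q of at least 2 the counts of members were 0, 1, 1 and 0, against 0.11%, 0.0274%, 0.0731% and 0% of all genes. Of 1340 H3K27me3 peaks in member windows, 21 had a q of at most 0.05, in 7 genes: Runx1, Snap25, Syn2, Slc17a8 and P2rx3 in Sham, Nefh in SNA, and Rbfox3, Nefh and Snap25 in Lam. DCA had none.

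Nefh carried the strongest of these by −log10 q, but the lowest by fold enrichment. Where the peaks of the other genes had fold enrichments of 1.63 to 2.68, those of Nefh had 1.06 to 1.41. The Nefh peak in SNA at 4947864 to 4950550 on chromosome 11, at a gene end, had a −log10 q of 6.99 and a fold enrichment of 1.28. Its Lam peak at 4945655 to 4954334 had 5.03 and 1.20. Both sit where ATAC peaks were listed after every surgery. In numbers, member windows held 320, 378, 419 and 223 H3K27me3 peaks, a log2 ratio of −0.91 for DCA against Lam beside −1.04 over all genes. At least 2-fold fewer were listed in DCA than in Lam for 13 members (46.7% of genes) and more for 3 (4.77%). For SNA against Sham 5 were higher (14.6%) and 5 lower (19.6%), and for Lam against Sham 3 were higher (24.1%) and 3 lower (9.84%). Rbfox3 moved furthest, with 53, 73, 100 and 8 H3K27me3 peaks.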

How the data were processed

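Peaks of 3 histone marks and of ATAC-seq were analysed for 36 genes in 16 pooled lists. Per the labels, each processed file pools the replicates of a condition, so n is 1 list per group and no test could be run. Per the submitters' processing notes the build is mm10. The aligner, peak caller and settings are not given in the sources used here. The deposited lists give for each peak a fold enrichment, which is a linear ratio, a −log10 p, a −log10 q and a display score. The score was not used further, and the other values are the authors' and served only to rank or filter peaks within a list. ATAC intervals repeated for several summits were collapsed to the highest −log10 p. Input samples have no list analysed here.

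Genes came from the RefSeq table of GRCm38.p6, the same assembly, which matched 35 members by symbol and 1 (Drgx) by synonym. It gives no exons, so exon and intron were not assigned. Starts came from promoter entries. For the 9 members without one (Nefh, Nefm, Nefl, Stmn2, Snap25, P2rx3, Fxyd2, Fxyd7 and Thy1) the strand is not given there, and either gene end counted as a start. Peak numbers were compared as log2 of (peaks + 1), and 2-fold was the mark for a call, which a change between 0 peaks and 1 peak reaches. The percent of all genes past the same mark was taken in the same way. The members and gene lists were chosen with earlier results of these data known. Named in full were the transcription factors, members past 2-fold in SNA against Sham or DCA against Lam in 2 of the 3 assays H3K9ac, H3K27ac and ATAC or in ATAC alone with a net of 4 peaks, and members without acetylation at the start. Alternatives were a −log10 q of at least 2, lists of equal length, the gene body alone, a start distance of 5 kb and a reciprocal overlap of 50%. Others, chosen after seeing the data, left out Rbfox1 and Rbfox3, starts shared with another gene, genes without a promoter entry, or 1 list. Counting was tested on planted peaks. Python 3.11.15, pandas 2.3.3, numpy 2.4.6 and matplotlib 3.10.9 were used.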

Additional observations from a re-analysis of the deposited data

Results flagged for a closer look

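A total of 5 members had H3K27ac, H3K9ac or ATAC peak numbers at least 2-fold apart in opposite directions after the 2 axotomies, in log2 of (peaks + 1), which is 13.9% of members beside 9.3% of all genes. The difference between the axotomies was not tested, and each value rests on 1 pooled list per surgery. Drgx had an H3K27ac ratio of −1 in SNA against Sham and 1 in DCA against Lam, from 1 peak in Sham and in DCA and 0 in SNA and Lam. Prdm12 had an H3K9ac ratio of −1 and 1, from the same numbers of peaks. Prph had an H3K27ac ratio of 2 and −1, from 3 peaks in SNA, 1 in Lam and 0 in Sham and DCA. Avil had an H3K27ac ratio of 1 and −1, from 3 peaks in SNA, 1 each in Sham and Lam and 0 in DCA. Scg2 had an ATAC ratio of −2 and 1, from 3 peaks each in Sham and DCA, 0 in SNA and 1 in Lam. The Scg2 values kept their signs under the 3 alternatives run for them, while Prdm12 was at 0 in SNA against Sham at a −log10 q of at least 2 and at 0 in DCA against Lam with lists of equal length. For Drgx both values, and for Avil the DCA value, were at 0 in the gene body alone.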

How the results depend on the processing

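No paired analysis was possible because each deposited list pools the replicates of a condition, and for the same reason no replicate could be left out. Of 169 values recomputed for the main counts, shares and ratios, 129 stayed within 1.5 times the count or within a binomial interval, and 40 moved. That interval, used for ratios and shares, treats peaks as independent and is not a replicate error. A small ratio could change sign and still count as staying. The H3K9ac ratio for SNA against Sham did so, from 0.19 to −0.47 with lists of equal length. It was 0.92 at a −log10 q of at least 2, also counted as staying. The cause was not tested. With lists of equal length, H3K9ac gave 3 members higher and 5 lower in SNA against Sham (main 7 and 2), and 5 higher, 2 lower and a ratio of 0.44 in DCA against Lam. H3K27ac SNA against Sham gave a ratio of −0.90 and 2 higher. ATAC gave a ratio of −0.094 and 1 higher in SNA against Sham and 1 lower in DCA against Lam, and H3K9ac in SNA lay at 2 starts. At a −log10 q of at least 2, H3K9ac gave 3 higher and 0 lower in SNA against Sham, and a ratio of 0.92 and 0 lower in Lam against Sham. ATAC there gave 0.51 and 6 higher in SNA against Sham, and 0.24 and 5 higher in DCA against Lam. H3K9ac starts fell to 2 in SNA and 2 in Lam, H3K27me3 starts to 0, 1, 1 and 0 in Sham, SNA, Lam and DCA, and regions in all 4 lists to 8.25% for ATAC and 0% for H3K27me3. In the gene body alone, H3K27ac gave 1 higher in DCA against Lam, and ATAC gave 3 lower in SNA against Sham, 2 lower in DCA against Lam, and 1 higher and 4 lower in Lam against Sham. Within 5 kb, H3K9ac starts numbered 6 in Sham and 8 in SNA, and without starts shared with another gene 2 in SNA. Open starts without acetylation numbered 8 among genes with a promoter entry and 11 to 14 under the other 6 alternatives. With a reciprocal overlap of 50%, regions in all 4 lists were 4.71% for H3K9ac, 1.08% for H3K27ac, 5.73% for ATAC and 0.27% for H3K27me3. The unknown depth limits what a missing peak says.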
